A study of Mus musculus with 9 samples.

Results

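The genes described here encode the protein import translocases of the mitochondrial membranes and the SLC25 carriers of the inner membrane. They are the rows of the deposited tables whose mouse gene symbol begins with Timm, Tomm or Slc25a followed by a digit. The rule reads the symbol and no measured value. Of 20618 genes in the tables, 70 matched, namely 15 Timm, 10 Tomm and 45 Slc25a genes. Tomm6os among them is an antisense RNA that overlaps Tomm6 and not a translocase subunit. Averaged over all libraries, 56 of the 70 reached 1 FPKM (fragments per kilobase of gene, scaled to library size, hence a level per gene length), and 14 did not.

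The study compared RNA of wild type mouse CD8+ T cells, labelled as primary cells, in 3 media, with 3 libraries per medium. The cells spent 24 h in medium with 2 mM glucose, with 2 mM inosine, or with 2 mM inosine and hypoxanthine, and every medium held 10% dialyzed fetal bovine serum. Live cells, about 80% per the labels, were sorted before sequencing, and all libraries carry the same batch label. The hypoxanthine dose is not given here because its unit is damaged in the labels, and the age of the mice, the number of mice and any activation of the cells are not given in the sources used here. Inosine is a purine nucleoside whose ribose can feed carbon metabolism, and hypoxanthine is its purine base. Nothing in the labels ties the 3 libraries per medium to different mice or dishes. The p-values therefore speak only of the variation among these libraries, which could be purely technical.

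Nearly all mitochondrial proteins are made in the cytosol and enter through the TOM complex of the outer membrane. Proteins with a presequence then pass the TIM23 complex of the inner membrane, while SLC25 carriers themselves are escorted by small TIM chaperones and inserted by the TIM22 complex. The carriers exchange nucleotides, phosphate, amino acids, carboxylates and cofactors between cytosol and matrix, and an activated T cell builds mitochondrial mass as it grows.

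Whole reads recovered from the FPKM values summed to 30294434 to 49165618 per library, and each of the 56 members at 1 FPKM or more had at least 181 reads in each library. The summed FPKM of 7 T cell markers was 816 to 1041 in the glucose and inosine libraries and 1317 to 1395 with hypoxanthine. Summed markers stayed at or under 6.46 FPKM for CD4 T cells (2 genes), 1.83 for B cells (4 genes), 4.27 for myeloid cells (5 genes), 0.241 for NK cells (2 genes), 0.132 for erythroid cells (2 of 3 genes in the tables) and 0.0435 for platelets (2 genes). The 2 epithelial markers summed to 1.14 to 1.57 FPKM in the glucose and inosine libraries and 2.11 to 2.18 with hypoxanthine. Genes of mitochondrial DNA took 6.50% of all FPKM in inosine replicate 2 and 5.84% in hypoxanthine replicate 2, against 4.03% to 4.82% in the other 7 libraries. The part of these marker and library differences in the results was not tested.

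With hypoxanthine, nearly all genes of the import machinery called by limma fell, while the carriers called by limma divided. The authors' own test, given below, had more carriers lower than higher. Among the 25 Timm and Tomm genes, 12 fell and 1 rose against inosine alone, and among the 45 Slc25a genes 4 fell and 7 rose (limma on log2(FPKM + 1), Benjamini-Hochberg adjusted p under 0.05 over all genes). Over all 20618 genes, 9.59% were called lower and 11.7% higher in that comparison. Of the 23 Timm and Tomm genes at 1 FPKM or more 52.2% fell, where 16.0% of all 9947 genes at that level were lower and 16.9% higher. Their median log2 difference was -0.34, against 0.02 over those 9947 genes. The 33 Slc25a genes at that level had a median of -0.01, and 4 of them fell and 4 rose. Leaving out the 2 libraries of highest mitochondrial share gave 23 called members in place of 24, and leaving out hypoxanthine replicate 3 gave 16, with 2757 genes called over all genes in place of 4382. In bulk RNA, fewer cells of a type and less RNA per cell cannot be told apart.

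Against glucose, the cells with hypoxanthine differed both in inosine in place of glucose and in the added base. There 11 Timm and Tomm genes fell and 1 rose, and 4 Slc25a genes fell and 6 rose. Over all genes 9.55% were lower and 10.8% higher, and among genes at 1 FPKM or more 15.9% were lower and 15.0% higher. Both comparisons use the same 3 hypoxanthine libraries, so their values are given side by side and do not count as 2 observations. A test for any difference among the 3 media called 23 of the 70 members, where 19.3% of all genes passed, and 20 of the 56 members at 1 FPKM or more, where 29.7% of genes at that level passed. Without hypoxanthine replicate 1 or 3 that test called 15 and 14 members and 2427 and 2105 of all genes in place of 3978. Against glucose, 22 members were called in all, 17 without hypoxanthine replicate 3, where the calls over all genes went from 4192 to 2677.

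**Figure D1:**
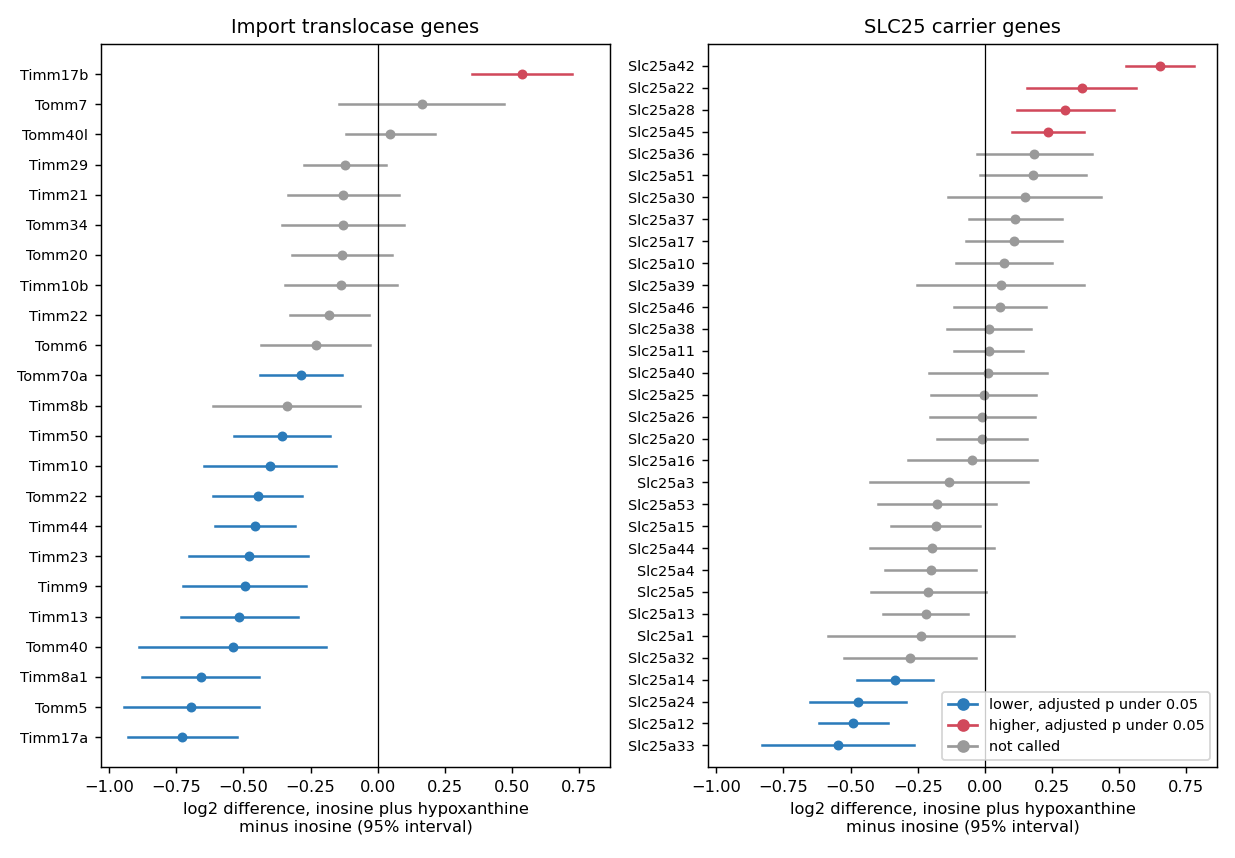
Log2 difference in log2(FPKM + 1) between inosine plus hypoxanthine and inosine, with its 95% interval from the limma fit, for the 23 Timm and Tomm genes (left) and 32 Slc25a genes (right) averaging 1 FPKM or more. Blue marks the genes called lower and red those called higher at an adjusted p under 0.05. On the left 12 genes are blue and only Timm17b is red, and on the right 4 are blue and 4 red.

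Inosine in place of glucose moved none of the 70 past the threshold. The limma test called 0 members, with 2 at an unadjusted p under 0.05 and 0 called by limma voom on the recovered reads. Of all genes 0.00970% were called, that is 2. For 69 of the 70 members the 95% interval of the log2 difference lay within 0.5 on either side of 0, and the differences ran from -0.26 to 0.14. Among the 56 members at 1 FPKM or more it was 55. Under that level the added 1 narrows the interval, so those members say little here. The 4 members with the smallest unadjusted p were Tomm6, a small TOM subunit (log2 difference -0.26 ± 0.09 SE), Slc25a40, a glutathione carrier (-0.23 ± 0.10), Slc25a2, an ornithine carrier (0.05 ± 0.03), and Slc25a25, an ATP-magnesium/phosphate carrier (-0.16 ± 0.09). Each of the 4 had a limma adjusted p of 1. The log2(FPKM + 1) scale understates changes of low genes. For Slc25a2 the authors' deposited log2 fold change was 0.914 (unadjusted p = 0.422 in their own test).

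Promoter sequences are shown for 6 members whose levels differed with hypoxanthine in either direction: both TIM17 forms, a TOM receptor, a small TIM chaperone and 2 carriers. Each is the 250 bases before the annotated start of the gene, 5′ to 3′ on the strand of the gene, from RefSeq on GRCm38.p6, and 56 of the 70 members had an entry. Capitals mark matches on either strand to the E-box CACGTG, the ETS motif CCGGAAG or the CCAAT box CCAAT.
Timm17a (chr1:135313738-135313987, minus strand): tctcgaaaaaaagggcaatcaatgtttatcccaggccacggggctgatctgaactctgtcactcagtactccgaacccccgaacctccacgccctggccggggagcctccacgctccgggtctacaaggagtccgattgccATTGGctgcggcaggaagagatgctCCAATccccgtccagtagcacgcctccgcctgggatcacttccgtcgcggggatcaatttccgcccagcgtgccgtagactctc
Timm17b (chrX:7899086-7899335, plus strand): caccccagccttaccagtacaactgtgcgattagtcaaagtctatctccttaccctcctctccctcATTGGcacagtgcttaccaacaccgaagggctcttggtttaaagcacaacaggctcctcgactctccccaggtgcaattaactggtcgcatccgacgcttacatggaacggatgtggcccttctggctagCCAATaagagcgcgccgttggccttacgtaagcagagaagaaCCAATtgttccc
Tomm22 (chr15:79670618-79670867, plus strand): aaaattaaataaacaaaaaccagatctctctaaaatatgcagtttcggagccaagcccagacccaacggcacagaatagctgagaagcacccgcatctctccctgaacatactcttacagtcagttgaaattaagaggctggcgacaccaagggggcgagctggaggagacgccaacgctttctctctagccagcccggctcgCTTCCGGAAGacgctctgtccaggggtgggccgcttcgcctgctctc
Timm9 (chr12:71136676-71136925, minus strand): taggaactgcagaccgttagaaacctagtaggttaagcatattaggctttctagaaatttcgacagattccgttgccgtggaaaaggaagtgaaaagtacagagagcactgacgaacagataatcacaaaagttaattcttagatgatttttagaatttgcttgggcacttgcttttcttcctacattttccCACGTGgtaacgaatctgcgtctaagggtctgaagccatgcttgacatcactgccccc
Slc25a33 (chr4:149774268-149774517, minus strand): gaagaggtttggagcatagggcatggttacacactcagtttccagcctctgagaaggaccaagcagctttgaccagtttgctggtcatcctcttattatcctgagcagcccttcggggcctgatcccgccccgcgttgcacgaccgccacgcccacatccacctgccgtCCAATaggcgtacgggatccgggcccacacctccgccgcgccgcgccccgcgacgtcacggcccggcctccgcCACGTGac
Slc25a42 (chr8:70212282-70212531, minus strand): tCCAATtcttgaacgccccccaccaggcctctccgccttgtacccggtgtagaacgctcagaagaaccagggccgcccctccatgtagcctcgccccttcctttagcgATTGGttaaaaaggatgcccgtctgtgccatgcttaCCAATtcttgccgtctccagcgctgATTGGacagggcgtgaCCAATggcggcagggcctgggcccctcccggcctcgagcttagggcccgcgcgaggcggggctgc
In these windows Timm17a had 2 CCAAT boxes, Timm17b 3 and Slc25a42 5. Tomm22 had 2 overlapping ETS matches, which begin at positions -47 and -44 from the start and lie on opposite strands, so the capitals form 1 run. The E-box began at -58 in Timm9 and at -8 in Slc25a33, which also had 1 CCAAT box.

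Across the members the ETS motif, a site type bound by ETS factors such as GABPA, was in 14 of 56 windows (25%). The same window held it in 7.07% of all 27025 promoters and in 16.4% of the 8066 promoters of genes at 1 FPKM or more. Of the 22 Timm and Tomm windows, 8 held it, among them those of Timm23, Tomm22, Tomm70a, Timm10, Timm8b and Tomm34. The E-box, which MYC and related factors bind, was in 8 member windows (14.3%), against 6.04% of all promoters and 8.84% of those at 1 FPKM or more. Of the 16 members that fell against inosine, 4 held an E-box (Timm9, Timm8a1, Slc25a14 and Slc25a33), as did 4 of 34 members that were not called and 0 of 6 that rose. Among all genes at 1 FPKM or more that fell, 10.1% of 1300 promoters held an E-box. The ETS motif was in 4 of the 16 members that fell, 10 of the 34 not called and 0 of the 6 that rose. For the CCAAT box these counts were 5, 12 and 4. Differences between these groups were not tested. The CCAAT box was in 37.5% of member windows and 34.5% of all promoters, and in 37.9% of promoters at 1 FPKM or more. The NRF1 core GCGCATGC was in 2 member windows (3.57%), between the 2.31% of all promoters and the 5.08% of those at 1 FPKM or more. The ATF4-like TGATGNAA was in 0 member windows, against 3.53% and 1.92%. A match is a description of the letters, and no binding was measured.

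Of the 8 receptor, pore and small-subunit genes of the TOM complex, 4 fell against inosine and 5 against glucose with hypoxanthine, and none rose. Of all genes at 1 FPKM or more, 16.0% and 15.9% were lower in the same comparisons. Tomm22, the central receptor that hands preproteins to the pore, read 106, 96.99 and 102 FPKM in the glucose libraries, 95.6, 111 and 104 FPKM in the inosine libraries and 75.7, 78.5 and 72.5 FPKM in those with hypoxanthine. The hypoxanthine libraries were the 3 lowest, with no overlap. Their log2 difference was -0.45 ± 0.07 (SE, n = 3 per medium, limma adjusted p = 0.00314) against inosine and -0.42 ± 0.07 (adjusted p = 0.004401) against glucose. Tomm70a, the receptor for carrier precursors with internal signals, read 40.8, 37.7 and 40.9 FPKM in the glucose libraries, 40.6, 35.98 and 39.3 FPKM in the inosine libraries and 32.2, 30.9 and 31.3 FPKM in those with hypoxanthine. Every hypoxanthine library was below all 6 others, with a log2 difference of -0.29 ± 0.07 (limma adjusted p = 0.0162) against inosine and -0.33 ± 0.07 (adjusted p = 0.00895) against glucose. The call against inosine was lost without inosine replicate 3 (adjusted p = 0.0579) and without hypoxanthine replicate 3 (adjusted p = 0.0612). Tomm20, the presequence receptor, had 42.2 ± 1.98 FPKM (SD, n = 3) in inosine and 38.4 ± 1.95 FPKM with hypoxanthine, a log2 difference of -0.13 ± 0.08 with a 95% interval of -0.32 to 0.05 (limma adjusted p = 0.312).

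Tomm5 had the largest fall among the TOM genes against inosine. This small subunit, which stabilizes the complex near the pore, read 171, 134 and 162 FPKM in the glucose libraries, 166, 171 and 160.3 FPKM in the inosine libraries and 94.4, 117 and 96.1 FPKM in those with hypoxanthine. The groups did not overlap, and the mean fell by 38.1% from inosine (log2 difference -0.69 ± 0.11, limma adjusted p = 0.00285) and decreased by 34.2% from glucose (-0.60 ± 0.11, adjusted p = 0.00597). Tomm40, the beta-barrel pore through which preproteins cross the outer membrane, read 93.2, 88.2 and 80.2 FPKM in the glucose libraries, 91.2, 61.8 and 88.3 FPKM in the inosine libraries and 60.997, 47.5 and 54.98 FPKM in those with hypoxanthine. Inosine replicate 2 lay just above the highest hypoxanthine library. The log2 difference was -0.54 ± 0.15 (limma adjusted p = 0.0361) against inosine and -0.67 ± 0.15 (adjusted p = 0.0152) against glucose. The Tomm40 call against inosine depended on single libraries: leaving out any glucose library, inosine replicate 1 or 3, or hypoxanthine replicate 2 or 3 gave an adjusted p of 0.0505 to 0.124. Against glucose it was lost without glucose replicate 1 or hypoxanthine replicate 2 or 3 (adjusted p = 0.0510 to 0.0562). Tomm6, another small subunit, read 88.6, 83.3 and 81.1 FPKM in the glucose libraries, 78.4, 68.9 and 64.6 FPKM in the inosine libraries and 60.6, 55.1 and 63.98 FPKM in those with hypoxanthine. Here the inosine libraries lay between the other groups, and only the difference from glucose passed (-0.49 ± 0.09, limma adjusted p = 0.00551, against 0.104 for inosine). The difference between the Tomm6 contrasts was not tested.

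Other outer-membrane and cytosolic members were not called. Tomm7, a small subunit that also takes part in holding PINK1 at the membrane, read 81.2 ± 14.7 FPKM in inosine and 90.8 ± 12.98 FPKM with hypoxanthine (log2 difference 0.16 ± 0.14, 95% interval -0.14 to 0.47, limma adjusted p = 0.4601). Tomm40l, the second Tom40 form, held 9.48 to 11.1 FPKM in the 9 libraries (log2 difference 0.05 ± 0.07, adjusted p = 0.712). Division of Tomm40 by Tomm40l gave 8.34 ± 0.318 for glucose, 8.23 ± 1.82 for inosine and 5.34 ± 0.437 for inosine plus hypoxanthine (SD, n = 3). Tomm34, a cytosolic import factor, had a log2 difference of -0.13 ± 0.10 (adjusted p = 0.425).

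**Figure D2:**
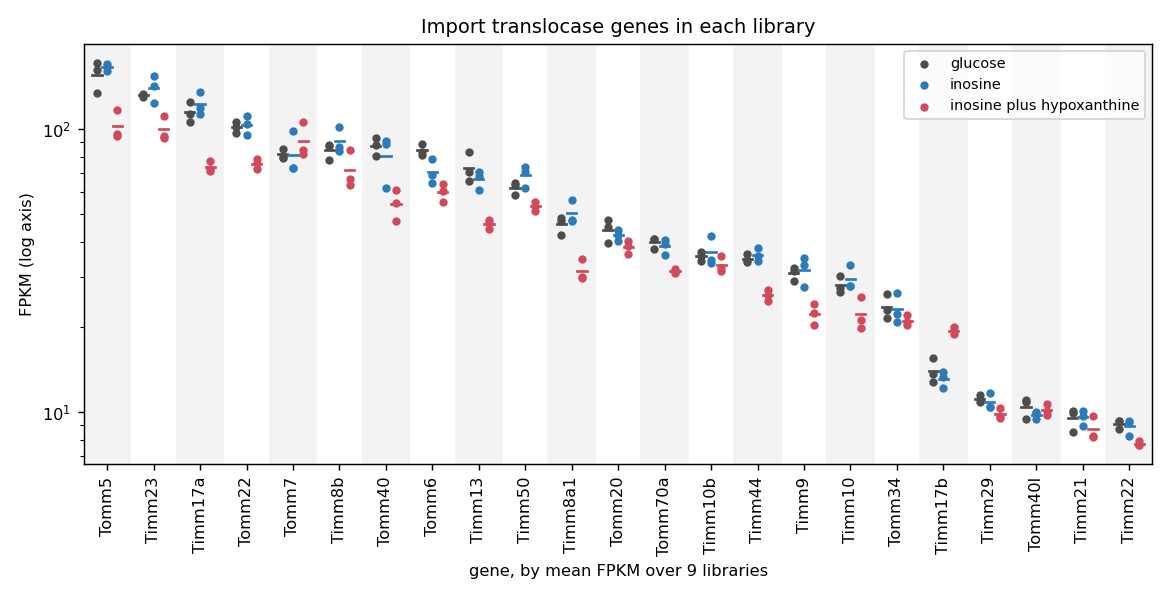
FPKM on a log axis in each of the 9 libraries for the 23 Timm and Tomm genes averaging 1 FPKM or more, ordered by mean, with points for libraries and a short line for the mean of each medium. Red points (inosine plus hypoxanthine) lie below the others for Tomm5, Timm17a and Timm8a1 and above them for Timm17b.

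The 2 forms of the TIM17 channel subunit moved in opposite directions. Tim17 forms the translocation path of TIM23 together with Tim23, and mouse cells carry it as Timm17a and Timm17b. Timm17a read 125, 106 and 113 FPKM in the glucose libraries, 114, 136 and 119 FPKM in the inosine libraries and 72.1, 77.3 and 71.3 FPKM in those with hypoxanthine. All 3 hypoxanthine libraries were under the lowest of the others, and the mean fell by 40.1% from inosine (log2 difference -0.73 ± 0.09 SE, limma adjusted p = 0.000814) and decreased by 35.9% from glucose (-0.63 ± 0.09, adjusted p = 0.00163). Timm17b read 12.8, 15.5 and 13.6 FPKM in the glucose libraries, 12.1, 13.9 and 13.3 FPKM in the inosine libraries and 18.9, 19.3 and 20.04 FPKM in those with hypoxanthine. Its hypoxanthine libraries were the 3 highest, with a mean 48.3% above inosine (log2 difference 0.54 ± 0.08, limma adjusted p = 0.00235) and 39.2% above glucose (0.45 ± 0.08, adjusted p = 0.00544). Both calls held in both comparisons under every alternative that was run. The ratio of Timm17a to Timm17b was 9.81, 6.84 and 8.31 in the glucose libraries, 9.35, 9.77 and 8.97 in the inosine libraries and 3.81, 4.00 and 3.56 with hypoxanthine. The ratio with hypoxanthine lay below all 6 other libraries. Timm17b shares at least 71 exon bases with Gm10491 on the opposite strand in the GENCODE annotation, and the strand setting of the counting is not given in the sources used here.

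**Figure D3:**
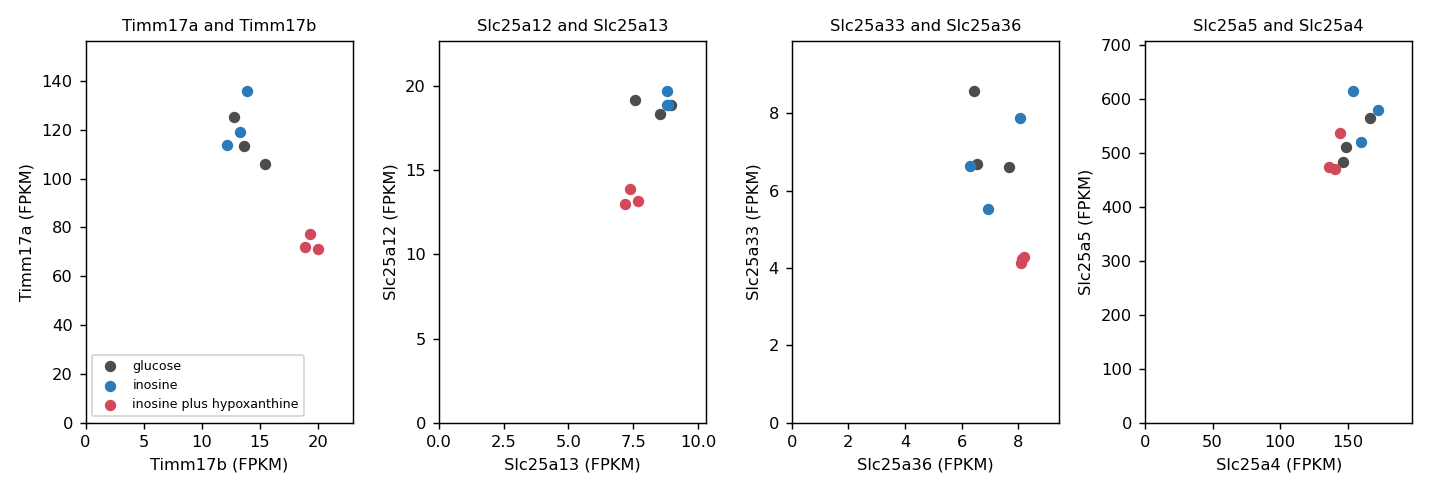
FPKM of paired genes in each library, with 1 point per library: Timm17a against Timm17b, Slc25a12 against Slc25a13, Slc25a33 against Slc25a36 and Slc25a5 against Slc25a4. With hypoxanthine (red) the Timm17 points sit at lower Timm17a (71.3 to 77.3 FPKM) and higher Timm17b (18.9 to 20.0 FPKM), while the Slc25a5 and Slc25a4 points overlap or nearly overlap those of the other media.

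Of the other TIM23 subunits, Timm23, Timm44 and Timm50 fell against inosine, and Timm21 was not called. Timm23, the channel subunit, read 133, 129.6 and 132 FPKM in the glucose libraries, 123, 154 and 142 FPKM in the inosine libraries and 94.8, 111 and 93.1 FPKM in those with hypoxanthine. Its groups did not overlap, with log2 differences of -0.48 ± 0.10 (limma adjusted p = 0.00867) against inosine and -0.40 ± 0.10 (adjusted p = 0.01995) against glucose. The call against glucose was lost when any glucose library or hypoxanthine replicate 1 or 3 was left out (adjusted p = 0.0502 to 0.0821). Timm44, which anchors the matrix import motor to the channel, read 36.2, 34.1 and 34.5 FPKM in the glucose libraries, 35.7, 34.1 and 38.1 FPKM in the inosine libraries and 27.1, 24.7 and 25.96 FPKM in those with hypoxanthine. The difference was -0.46 ± 0.07 (limma adjusted p = 0.00169) against inosine and -0.42 ± 0.07 (adjusted p = 0.00278) against glucose, with no overlap. Timm50, the receptor that takes preproteins from the TOM complex, read 64.4, 58.6 and 63.3 FPKM in the glucose libraries, 61.9, 70.6 and 73.8 FPKM in the inosine libraries and 53.4, 55.3 and 51.5 FPKM in those with hypoxanthine. It passed against inosine only (-0.36 ± 0.08, limma adjusted p = 0.01303), and against glucose the difference was -0.21 ± 0.08 (adjusted p = 0.0926). Without inosine replicate 3 or hypoxanthine replicate 3 the call was lost (adjusted p = 0.0513 and 0.0585). Timm21 had 9.59 ± 0.583 FPKM in inosine and 8.701 ± 0.885 FPKM with hypoxanthine (log2 difference -0.13 ± 0.09, 95% interval -0.34 to 0.08, adjusted p = 0.392). Whether Timm21 differs from the other subunits in its change was not tested.

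Small TIM chaperones of the intermembrane space fell in 4 of 6 cases against inosine and 3 of 6 against glucose, where 16.0% and 15.9% of genes at 1 FPKM or more were lower. Timm8a1, which works with Timm13 and is the mouse counterpart of the human deafness-dystonia gene, read 48.5, 42.3 and 47.5 FPKM in the glucose libraries, 47.5, 56.01 and 47.8 FPKM in the inosine libraries and 30.1, 34.9 and 29.7 FPKM in those with hypoxanthine. The hypoxanthine libraries lay below all others (log2 difference -0.66 ± 0.10, limma adjusted p = 0.00179, against inosine and -0.53 ± 0.10, adjusted p = 0.00522, against glucose). Its partner Timm13 read 82.96, 70.4 and 65.4 FPKM in the glucose libraries, 68.4, 70.6 and 60.96 FPKM in the inosine libraries and 47.8, 44.4 and 46.5 FPKM in those with hypoxanthine. Again the groups did not overlap, with differences of -0.52 ± 0.10 (limma adjusted p = 0.00601) and -0.64 ± 0.10 (adjusted p = 0.00226). Without the 2 libraries of highest mitochondrial share, the Timm13 difference from inosine had an adjusted p of 0.05096. Timm9 and Timm10 form the chaperone that carries SLC25 precursors to TIM22. Timm9, whose E-box window is printed above, read 32.3, 28.99 and 31.5 FPKM in the glucose libraries, 27.6, 34.9 and 33.1 FPKM in the inosine libraries and 20.3, 24.03 and 22.5 FPKM in those with hypoxanthine. Its log2 differences were -0.50 ± 0.10 (limma adjusted p = 0.00859) against inosine and -0.46 ± 0.10 (adjusted p = 0.0128) against glucose. Timm10 read 30.4, 26.6 and 27.4 FPKM in the glucose libraries, 27.9, 33.03 and 27.8 FPKM in the inosine libraries and 21.2, 25.5 and 19.9 FPKM in those with hypoxanthine. It passed against inosine (-0.40 ± 0.11, limma adjusted p = 0.0289) but not against glucose (-0.33 ± 0.11, adjusted p = 0.0613). That call was lost without glucose replicate 3, inosine replicate 2 or 3, or hypoxanthine replicate 1 or 3 (adjusted p = 0.0501 to 0.112). Timm8b differed by -0.34 ± 0.12 from inosine (limma adjusted p = 0.0808, and 0.0191 to 0.238 over the alternatives) and was not called. Timm8a2 stayed at or under 0.0410 FPKM in every library.

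The 3 members of the TIM22 complex, which inserts carriers into the inner membrane, were not called by limma in either comparison. Timm22, its channel, read 9.31, 9.28 and 8.74 FPKM in the glucose libraries, 8.27, 9.296 and 9.23 FPKM in the inosine libraries and 7.68, 7.92 and 7.66 FPKM in those with hypoxanthine. The hypoxanthine libraries were the lowest, but the log2 difference of -0.18 ± 0.06 against inosine (limma adjusted p = 0.0829) and of -0.21 ± 0.06 against glucose (adjusted p = 0.0532) missed the threshold. Over the alternatives the limma adjusted p of Timm22 ran from 0.0345 to 0.22 against inosine and from 0.0294 to 0.149 against glucose. In the authors' own test the adjusted p of Timm22 was 0.0929 against inosine and 0.0275 against glucose. Timm29, a TIM22 subunit of animals, differed by -0.12 ± 0.07 from inosine (adjusted p = 0.262). Timm10b, the small TIM that docks at TIM22, differed by -0.14 ± 0.09 (adjusted p = 0.3695). The 95% intervals were -0.33 to -0.03, -0.27 to 0.03 and -0.35 to 0.07 for Timm22, Timm29 and Timm10b.

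Summed over the 25 genes, Timm and Tomm FPKM was 1251 to 1380 in glucose, 1282 to 1399 in inosine and 976 to 1068 with hypoxanthine. The hypoxanthine libraries held the 3 lowest sums. The Slc25a sum was 1234 to 1381, 1284 to 1313 and 1161 to 1186 FPKM in the same order. These carrier sums also did not overlap, but 3 genes made up 74.0% to 77.6% of each of them.

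**Figure D4:**
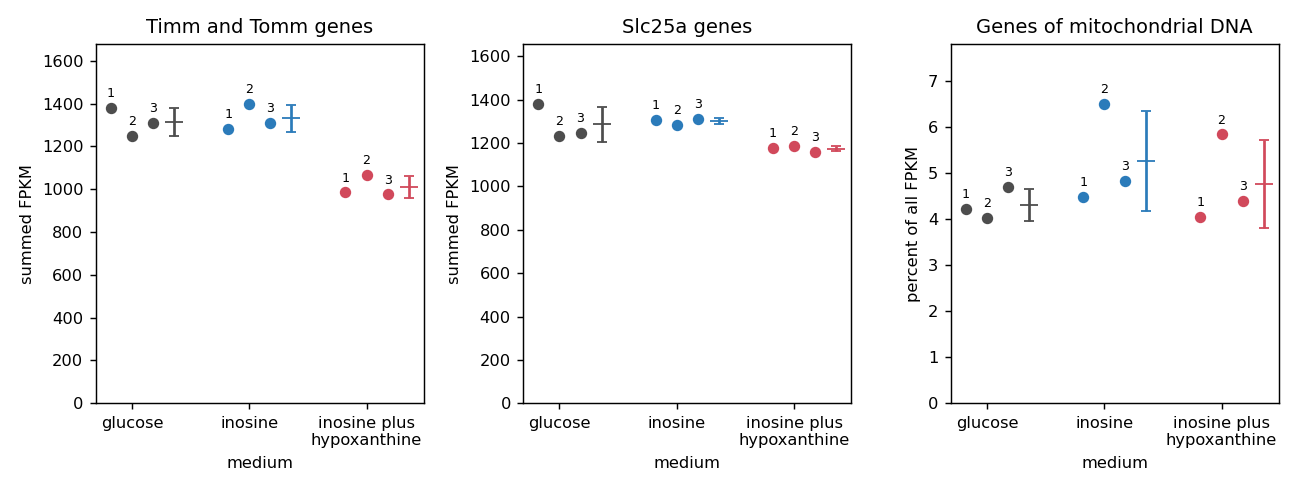
Summed FPKM of the 25 Timm and Tomm genes (left) and the 45 Slc25a genes (middle), and the percent of all FPKM in the 13 genes of mitochondrial DNA (right), in each library (points, with the replicate number) and as mean ± SD of 3 libraries (bars). The 3 hypoxanthine libraries are lowest in the left panel (976 to 1068), and replicate 2 of inosine (6.50%) and of inosine plus hypoxanthine (5.84%) stand highest in the right panel.

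Those 3 carriers are the energy exchangers, and none of them was called by limma. The authors' own test gave Slc25a3 an adjusted p of 0.00179 against glucose and Slc25a4 an adjusted p of 0.0382 against inosine, both lower. Their other results for the 3 carriers did not pass. Slc25a5, the ADP/ATP translocase of dividing cells, read 564, 484 and 510.3 FPKM in the glucose libraries, 520.1, 614 and 579.9 FPKM in the inosine libraries and 470.4, 537 and 473 FPKM in those with hypoxanthine. Its hypoxanthine libraries overlapped both other groups (log2 difference -0.21 ± 0.09 against inosine, 95% interval -0.43 to 0.00, limma adjusted p = 0.163). Slc25a4, the heart and muscle form, read 166, 146 and 149 FPKM in the glucose libraries, 159.7, 154 and 172 FPKM in the inosine libraries and 141, 144 and 136 FPKM in those with hypoxanthine. All 3 hypoxanthine values were the lowest, with a difference of -0.20 ± 0.07 from inosine (limma adjusted p = 0.0909) and -0.13 ± 0.07 from glucose (adjusted p = 0.2796). The ratio of Slc25a5 to Slc25a4 was 3.38 ± 0.0593, 3.54 ± 0.399 and 3.51 ± 0.190 in glucose, inosine and inosine plus hypoxanthine (SD, n = 3). Slc25a3, the phosphate carrier, read 338, 292 and 285 FPKM in the glucose libraries, 318, 229 and 258 FPKM in the inosine libraries and 259, 219 and 252 FPKM in those with hypoxanthine. It differed by -0.13 ± 0.13 from inosine (limma adjusted p = 0.534) and -0.33 ± 0.13 from glucose (adjusted p = 0.114). Over the alternatives the limma adjusted p of Slc25a3 against glucose ran from 0.034 to 0.295. It was under 0.05 only with the replicate block over 9 libraries. Slc25a5 was the highest of all members in each of the 9 libraries and Slc25a3 came next, while the ranges of Slc25a4 and Tomm5 overlapped.

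Among the other nucleotide carriers, Slc25a24 and Slc25a33 fell. Slc25a24, a calcium-regulated ATP-magnesium/phosphate carrier, read 6.62, 8.21 and 7.98 FPKM in the glucose libraries, 7.601, 7.398 and 7.26 FPKM in the inosine libraries and 5.04, 5.04 and 5.12 FPKM in those with hypoxanthine. The hypoxanthine libraries lay within 0.1 FPKM of each other and below all others (log2 difference -0.47 ± 0.08, limma adjusted p = 0.00339, against inosine and -0.50 ± 0.08, adjusted p = 0.00272, against glucose). Slc25a25, of the same carrier type, did not pass (-0.01 ± 0.09, adjusted p = 1.00). Slc25a33, which brings pyrimidine nucleotides into the matrix, read 8.58, 6.68 and 6.63 FPKM in the glucose libraries, 7.89, 5.53 and 6.63 FPKM in the inosine libraries and 4.28, 4.24 and 4.13 FPKM in those with hypoxanthine. It fell by 36.9% from inosine (-0.55 ± 0.13, limma adjusted p = 0.0147) and decreased by 42.2% from glucose (-0.66 ± 0.13, adjusted p = 0.00661). Without hypoxanthine replicate 3 the call against inosine was lost (adjusted p = 0.0567). Slc25a36, the other pyrimidine nucleotide carrier, was not called (7.09 ± 0.903 FPKM in inosine, 8.15 ± 0.0631 with hypoxanthine, log2 difference 0.18 ± 0.09, adjusted p = 0.223). Division of Slc25a33 by Slc25a36 gave 1.07 ± 0.239 for glucose, 0.945 ± 0.133 for inosine and 0.518 ± 0.00693 for inosine plus hypoxanthine, and the hypoxanthine range did not overlap the others. Slc25a17, the peroxisomal nucleotide carrier, differed by 0.11 ± 0.08 (adjusted p = 0.401).

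**Figure D5:**
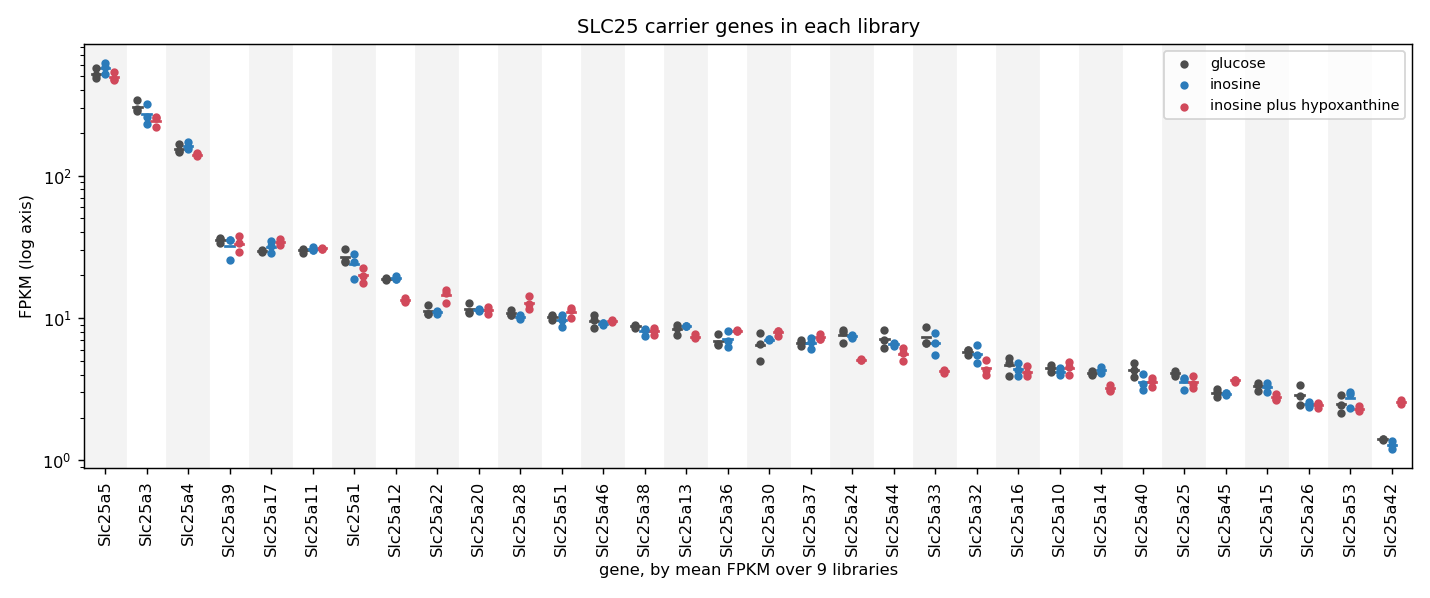
FPKM on a log axis in each of the 9 libraries for 32 Slc25a genes averaging 1 FPKM or more, ordered by mean, with points for libraries and a short line for the mean of each medium. Slc25a5, Slc25a3 and Slc25a4 lie above 100 FPKM in every library, and red points (inosine plus hypoxanthine) lie apart from the others for Slc25a12, Slc25a24, Slc25a33, Slc25a14 and Slc25a42.

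Of 9 amino acid carriers, 1 fell and 1 rose against inosine, which is near the 9.59% lower and 11.7% higher of all genes. Slc25a12 (aralar), an aspartate/glutamate exchanger of the malate-aspartate shuttle, read 19.2, 18.9 and 18.3 FPKM in the glucose libraries, 18.9, 18.9 and 19.7 FPKM in the inosine libraries and 13.9, 13.2 and 13.002 FPKM in those with hypoxanthine. Its 3 hypoxanthine libraries stood well under the others, and the mean fell by 30.3% from inosine (log2 difference -0.49 ± 0.06 SE, limma adjusted p = 0.000594) and decreased by 29.04% from glucose (-0.47 ± 0.06, adjusted p = 0.000769). Slc25a13 (citrin), the second form of that exchanger, read 7.58, 8.96 and 8.52 FPKM in the glucose libraries, 8.79, 8.82 and 8.78 FPKM in the inosine libraries and 7.36, 7.67 and 7.19 FPKM in those with hypoxanthine. Its difference from inosine, -0.22 ± 0.07, missed the threshold (limma adjusted p = 0.0528, and 0.0239 to 0.164 over the alternatives), and against glucose it was -0.15 ± 0.07 (adjusted p = 0.169). Division of Slc25a12 by Slc25a13 gave 2.26 ± 0.231 for glucose, 2.18 ± 0.0578 for inosine and 1.80 ± 0.0844 for inosine plus hypoxanthine (SD, n = 3). Slc25a22, a glutamate carrier, rose. It read 10.6, 12.4 and 10.7 FPKM in the glucose libraries, 11.3, 10.7 and 11.05 FPKM in the inosine libraries and 15.6, 12.8 and 14.96 FPKM in those with hypoxanthine, without overlap, and differed by 0.36 ± 0.09 from inosine (limma adjusted p = 0.0209) and 0.34 ± 0.09 from glucose (adjusted p = 0.0288). The Slc25a22 call against inosine was lost without inosine replicate 3 or hypoxanthine replicate 1 or 3 (adjusted p = 0.0618 to 0.0822), and that against glucose without glucose replicate 1 or 3 or hypoxanthine replicate 1 or 3 (adjusted p = 0.0874 to 0.105). Slc25a38, a glycine carrier of heme synthesis, had a log2 difference of 0.01 ± 0.07 from inosine with a 95% interval of -0.14 to 0.17 (adjusted p = 0.933).

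Slc25a42, which carries coenzyme A, had the largest rise among members at 1 FPKM or more, and is named here after its values were seen. It read 1.39, 1.42 and 1.41 FPKM in the glucose libraries, 1.36, 1.21 and 1.27 FPKM in the inosine libraries and 2.59, 2.502 and 2.66 FPKM in those with hypoxanthine, from 181 to 478 reads per library. The hypoxanthine libraries stood apart from all others at 102% above the inosine mean (log2 difference on the log2(FPKM + 1) scale, which understates changes of low genes, 0.65 ± 0.06, limma adjusted p = 0.000134) and 83.7% above glucose (0.57 ± 0.06, adjusted p = 0.000262). The other cofactor carriers Slc25a32 and Slc25a51 did not pass: the differences from inosine were -0.28 ± 0.11 for the folate and flavin carrier Slc25a32 (limma adjusted p = 0.109) and 0.18 ± 0.09 for the NAD carrier Slc25a51 (adjusted p = 0.195). Over the alternatives the limma adjusted p of Slc25a32 ran from 0.0427 to 0.394 against inosine and from 0.0265 to 0.214 against glucose. In the authors' own test Slc25a32 was lower, with an adjusted p of 0.00979 against inosine and 0.000507 against glucose.

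Of 8 carboxylate, acylcarnitine, iron and glutathione carriers, 1 was called higher against inosine and none against glucose. Over all genes 11.7% were called higher and 9.59% lower against inosine, and 10.8% and 9.55% against glucose. Slc25a11, the oxoglutarate carrier of the malate-aspartate shuttle, read 30.2, 30.7 and 28.5 FPKM in the glucose libraries, 29.8, 31.4 and 30.2 FPKM in the inosine libraries and 30.6, 31.2 and 30.6 FPKM in those with hypoxanthine. The 3 groups overlapped, and the 95% interval of the log2 difference from inosine was -0.12 to 0.14 (limma adjusted p = 0.918). Slc25a1, the citrate carrier, varied within media: its values were 28.01, 18.8 and 24.8 FPKM in inosine and 22.4, 17.5 and 19.8 FPKM with hypoxanthine (difference -0.24 ± 0.15, adjusted p = 0.3398, and -0.41 ± 0.15 from glucose, adjusted p = 0.0923). Slc25a20, the carnitine/acylcarnitine carrier of fatty acid oxidation, differed by -0.01 ± 0.07 (95% interval -0.18 to 0.16, adjusted p = 0.965). Slc25a28 (mitoferrin-2), an iron importer, read 11.4, 10.6 and 10.5 FPKM in the glucose libraries, 9.84, 10.5 and 10.1 FPKM in the inosine libraries and 12.5, 11.5 and 14.2 FPKM in those with hypoxanthine. It rose against inosine (0.30 ± 0.08, limma adjusted p = 0.0285) and was not called against glucose (0.21 ± 0.08, adjusted p = 0.0985). The call was lost without inosine replicate 1 or 3 or hypoxanthine replicate 1 or 3 (adjusted p = 0.0691 to 0.0999). Slc25a37 (mitoferrin-1) differed by 0.11 ± 0.08 (adjusted p = 0.371), and Slc25a39, the main glutathione carrier, by 0.06 ± 0.14 (adjusted p = 0.819).

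The remaining called carriers were of low level or of less settled substrate. Slc25a14, related to the uncoupling proteins, read 4.27, 3.97 and 4.07 FPKM in the glucose libraries, 4.08, 4.497 and 4.33 FPKM in the inosine libraries and 3.37, 3.15 and 3.09 FPKM in those with hypoxanthine. It fell against both media (-0.33 ± 0.06, limma adjusted p = 0.00599, and -0.28 ± 0.06, adjusted p = 0.01398), and the call against glucose was lost without hypoxanthine replicate 3 (adjusted p = 0.0588). Slc25a30, of the same subgroup, differed by 0.15 ± 0.12 and was not called (adjusted p = 0.474). Slc25a45 read 3.01, 3.15 and 2.81 FPKM in the glucose libraries, 2.99, 2.88 and 2.96 FPKM in the inosine libraries and 3.58, 3.68 and 3.67 FPKM in those with hypoxanthine. It rose against inosine (0.24 ± 0.06, limma adjusted p = 0.0218) and glucose (0.22 ± 0.06, adjusted p = 0.0301), without overlap. Its calls were lost without inosine replicate 3 or any hypoxanthine library (adjusted p = 0.0565 to 0.0747 against inosine), and without glucose replicate 1 or 3 or any hypoxanthine library (adjusted p = 0.0541 to 0.104 against glucose). Slc25a46, an outer-membrane member of the family, had a difference of 0.06 ± 0.08 (adjusted p = 0.6702).

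Among the 14 members under 1 FPKM, 3 rose and none fell against inosine, where 6.78% of all genes under 1 FPKM were higher and 3.66% lower. Against glucose 3 rose as well, where 6.84% of those genes were higher and 3.61% lower. These 3 are named after their values were seen. Slc25a35 read 0.577, 0.763 and 0.6403 FPKM in the glucose libraries, 0.5496, 0.442 and 0.631 FPKM in the inosine libraries and 1.14, 1.01 and 1.46 FPKM in those with hypoxanthine. Its log2 difference was 0.51 ± 0.09 (limma adjusted p = 0.00403) against inosine and 0.40 ± 0.09 (adjusted p = 0.0125) against glucose, but it shares at least 258 exon bases with Rangrf on the opposite strand. Slc25a27, a brain-enriched relative of the uncoupling proteins, read 0.224, 0.273 and 0.398 FPKM in the glucose libraries, 0.439, 0.433 and 0.244 FPKM in the inosine libraries and 0.744, 0.962 and 0.968 FPKM in those with hypoxanthine, from 73 to 349 reads (difference 0.46 ± 0.08, limma adjusted p = 0.00469, and 0.54 ± 0.08, adjusted p = 0.00234). Slc25a34 was listed at 0 in all glucose and inosine libraries and at 0.0175, 0.0226 and 0.0289 FPKM with hypoxanthine, from at most 4 reads, so its call rests on very few reads. The other 11, among them Slc25a47, Slc25a29 and Slc25a23, were not called.

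In all, 20 of the 70 members share exon bases with another annotated gene (GENCODE, GRCm38), and reads from opposite strands cannot be told apart where the counting is not stated to use strand. Called members with opposite-strand overlaps are Timm9 (49 bases with Tomm20l), Timm13 (43 with Tmprss9), Timm17b, Tomm40 (258 with Gm20512), Slc25a33 (281 with Gm13068) and Slc25a35. Tomm6 overlaps Tomm6os on the opposite strand (219 bases) and Gm21981 on its own strand (285), where use of strand would not separate reads. Each count of bases is the largest overlap of a single exon pair. How reads that match several copies of a gene were counted is not given in the sources used here.

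Of 25 import motor, processing and assembly genes outside the Timm and Tomm names, 12 fell and 1 rose against inosine, and 11 fell and 1 rose against glucose. The other 12 were not called against inosine, and 5 of the 25 had a difference above 0. All 25 averaged over 1 FPKM, a level at which 16.0% of genes were lower and 16.9% higher against inosine, and their median log2 difference was -0.27 against 0.02 over the genes at that level. Hspd1, the matrix chaperonin, read 418, 373 and 399 FPKM in the glucose libraries, 397, 392 and 391 FPKM in the inosine libraries and 234, 232 and 229 FPKM in those with hypoxanthine. The hypoxanthine values were close together and below all others (log2 difference -0.76 ± 0.06, limma adjusted p = 0.000114). Hspa9, the mitochondrial Hsp70 of the import motor, fell by 0.65 ± 0.08 (adjusted p = 0.000721). Chchd4, which oxidizes small TIM proteins after import, fell by 0.62 ± 0.07 (adjusted p = 0.000429). Immp2l, a subunit of the inner membrane peptidase named after its values were seen, was the 1 that rose (0.54 ± 0.09, adjusted p = 0.00353), from 1.84 ± 0.0517 to 3.14 ± 0.392 FPKM. None of the 25 was called between inosine and glucose, where 0 had an unadjusted p under 0.05 in limma.

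Of 22 listed transporters of the mitochondrial membranes outside the SLC25 names, 5 fell and 3 rose against inosine, and 5 fell and 3 rose against glucose. Beside these shares (22.7% and 13.6%), 16.0% of genes at 1 FPKM or more were lower and 16.9% higher against inosine. Over all genes these were 9.59% and 11.7%. The list was not limited by level, and Sfxn4 in it averaged under 1 FPKM. Sfxn3, a sideroflexin of the serine transporter family, read 3.53, 3.19 and 3.79 FPKM in the glucose libraries, 4.33, 3.201 and 3.25 FPKM in the inosine libraries and 10.1, 8.96 and 9.79 FPKM in those with hypoxanthine. It rose by 1.22 ± 0.10 on the log2 scale against inosine (limma adjusted p = 0.0001396), while Sfxn1, the main mitochondrial serine transporter, fell by 0.39 ± 0.07 (adjusted p = 0.00621). Sfxn4, another sideroflexin, rose by 0.25 ± 0.07 (adjusted p = 0.0331) against inosine and 0.46 ± 0.07 (adjusted p = 0.00228) against glucose, from 0.749 ± 0.01898 FPKM in inosine to 1.08 ± 0.163 with hypoxanthine. Of 13 regulators of mitochondrial biogenesis, 1 fell (7.69%) and 2 rose (15.4%) in both comparisons. Of genes at 1 FPKM or more, 16.0% were lower and 16.9% higher against inosine, and 15.9% and 15.0% against glucose. Myc read 69.5, 71.8 and 64.7 FPKM in the glucose libraries, 69.5, 48.5 and 70.1 FPKM in the inosine libraries and 118, 88.5 and 108 FPKM in those with hypoxanthine and rose by 0.74 ± 0.15 (limma adjusted p = 0.00956) against inosine. Polg, the mitochondrial DNA polymerase, rose by 0.54 ± 0.08 (adjusted p = 0.00238), and Nrf1, a regulator of nuclear genes for mitochondria, fell by 0.33 ± 0.08 (adjusted p = 0.0204). Gabpa, an ETS factor named here for the motif above, differed by 0.06 ± 0.08 (adjusted p = 0.681) and was not called.

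The authors' deposited tables give adjusted p-values from their own test and, separately, their own significance mark. That mark is set for 3 members against inosine with hypoxanthine (Slc25a27, Slc25a34 and Slc25a35). Against glucose it is set for 2 (Slc25a27 and Slc25a34), and between inosine and glucose for 0. The mark does not follow the authors' adjusted p alone. Against inosine Slc25a34 carries it at an authors' adjusted p of 0.141, while Timm17a, at 2.7e-11, does not. The counts that follow are a cut on the authors' adjusted p and not that mark. At an adjusted p under 0.05 the authors' deposited table for hypoxanthine against inosine has 28 members, 5 higher and 23 lower, where 22.0% of its genes pass. Among its carriers, Slc25a4, Slc25a12, Slc25a13, Slc25a14, Slc25a24, Slc25a32, Slc25a33, Slc25a44 and Slc25a53 are lower, and Slc25a22, Slc25a27, Slc25a35 and Slc25a42 higher. Tomm6 and Timm8b, not called by limma against inosine, are lower there as well. The authors' deposited table for hypoxanthine against glucose has 27 members, 5 higher and 22 lower, where 25.5% of its genes pass. Carriers lower there are Slc25a1, Slc25a3, Slc25a12, Slc25a14, Slc25a24, Slc25a32, Slc25a33 and Slc25a44, and the same carriers as against inosine are higher. Timm10, Timm22 and Timm50, not called by limma against glucose, are lower there too. In the authors' deposited table for inosine against glucose 0 members pass.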

How the data were processed

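RNA of 9 libraries of mouse CD8+ T cells was sequenced in paired-end mode. The submitters' processing notes name HISAT2, featureCounts, Subread 2.0.1, DESeq2 1.38.3 and the mm10 build, with no role or order. The authors deposited 1 table per pair of media, which holds FPKM per library, a mean read count signal per medium scaled by size factors, a log2 fold change and p-values, as read from the file headers and values.

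The FPKM of all 20618 genes were analysed as log2(FPKM + 1) in limma 3.58.1 (R 4.3.3, robust eBayes with an intensity trend), with a mean per medium over all 9 libraries, 6 residual degrees of freedom, no filter and no block. Errors of log2 differences are standard errors, errors of FPKM and ratios are standard deviations, and intervals are 95% intervals. Calls were made where the p-value adjusted over all genes by the Benjamini-Hochberg method was under 0.05, and the members were read out of that fit. The script was tested on simulated data. Whole reads were recovered from the FPKM steps and the mean read count signal for 20478 genes (99.3%), and limma voom on them, chosen after seeing the data, called 4584 genes between hypoxanthine and inosine, 4476 between hypoxanthine and glucose and 0 between inosine and glucose. FPKM divides by the total of each library, so values are shares and not RNA per cell.

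Same-numbered libraries did not deviate together throughout, so the numbers were not treated as pairs. Motifs and exon overlaps were searched with Python 3.11.15 in RefSeq promoters and GENCODE on GRCm38. The members and lists were chosen with earlier results of these data known. Named were called members with the largest change at a mean of at least 5 FPKM, the 2 highest of each role, the 4 smallest p between inosine and glucose, a fixed list of 26 members, and up to 3 genes of each outside list. Members named beyond these rules are called members or neighbours in a role, chosen after their values were seen. The values of 1 further member are not reported here.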

Additional observations from a re-analysis of the deposited data

How the results depend on the processing

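Of 210 differences (70 members in 3 comparisons), 46 were called, and 27 of these were called under all of 17 alternatives, 15 of them planned and 2 chosen after seeing the data. The other 19 were lost under at least 1. No called difference changed sign, and 17 of the 164 differences not called passed under at least 1 alternative. Leaving out 1 library at a time, members called for any difference among the 3 media ran from 14 to 24 (23 with all libraries) and genes from 2105 to 4285. Genes called ran from 2757 to 4487 between hypoxanthine and inosine, from 2677 to 4879 between hypoxanthine and glucose and from 1 to 7 between inosine and glucose. The replicate numbers share no stated source. The correlation of same-numbered libraries was 0.40, 0.26 and -0.27 between glucose and inosine, 0.41, 0.64 and 0.02 between inosine and hypoxanthine and 0.08, -0.20 and -0.06 between glucose and hypoxanthine. With the replicate block and only the 6 libraries compared, members called between hypoxanthine and glucose were 14 in place of 22 and genes 2110 in place of 4192. Among the calls lost there were those of Tomm5 (limma adjusted p = 0.1075), Timm8a1 (0.0696), Timm9 (0.07095) and Slc25a35 (0.0890) against glucose, which held under the other alternatives. That fit has fewer libraries and fewer residual degrees of freedom. The 2 genes called between inosine and glucose became 1 with the replicate block over 9 libraries, 0 with 6 libraries, 0 with 6 libraries and the block, 0 with a mean of at least 1 FPKM, 0 with voom and 1 without the 2 libraries of highest mitochondrial share. The cause was not tested. With 3 libraries per medium, and with levels under 1 FPKM, small differences may go undetected.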
